A study of Mus musculus with 12 samples.

Results

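The genes described here are those of the mouse mitochondrial genome, chosen by their place on the mitochondrial chromosome (symbols that begin with mt-). The GENCODE vM39 annotation of GRCm39 holds 37 of them, with 13 protein-coding genes, 2 rRNA genes, and 22 tRNA genes. Of the 40551 genes counted in each library, 13 were members, all of them protein-coding, and the rRNA and tRNA genes were not analysed here. Total RNA-seq had been performed on 12 livers, 3 of each of 4 genotypes, with 28826367 to 45266387 counts on genes per library. The genotypes were wild type (WT), Mcl1Δhep (Mcl1 KO in the labels), Mcl1Δhep Sting1-/- (Mcl1 Sting1 DKO), and Sting1-/- (Sting1 KO). Mcl1Δhep mice came from a cross of Alb-Cre transgenic mice with mice that carry floxed Mcl1, so the deletion is driven by the albumin promoter in hepatocytes, whereas the other cells of the liver keep the gene. Mcl1Δhep Sting1-/- mice came from a cross of the Mcl1Δhep and Sting1-/- lines. The Sting1 deletion of both lines is not limited to hepatocytes. Animals of both sexes were used. Mice of the first 3 genotypes were examined at ages of 2 and 12 months, and the Mcl1Δhep liver transcriptomes were described as those of livers at 2 months. The labels give no age for any library, and none was found for the Sting1-/- livers.

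The mitochondrial genome is a small circle that every liver cell holds in many copies. It is transcribed from both strands into long RNAs, which are cut at the tRNAs between the genes into mRNAs, rRNAs, and tRNAs. Its mRNAs encode subunits of complexes I, III, and IV of the respiratory chain and of the ATP synthase, and all other subunits come from nuclear genes. Hepatocytes are rich in mitochondria, and MCL1, the protein lost in Mcl1Δhep hepatocytes, is an antiapoptotic protein of the mitochondrial outer membrane. STING is an adaptor that signals in response to DNA in the cytosol.

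The levels of the deleted genes were examined first. Mcl1 had 98.5 ± 7.35 CPM (the count of a gene relative to the TMM-scaled library total) in WT livers and 28.9 ± 4.57 in Mcl1Δhep livers (mean ± SD, n = 3 each). It had 22.3 ± 3.95 CPM in Mcl1Δhep Sting1-/- livers and 81.6 ± 7.19 in Sting1-/- livers, so the libraries labelled as deleted did not overlap the others. Sting1 ranged from 2.11 to 2.53 CPM in WT livers and from 1.16 to 2.70 CPM in Sting1-/- livers. It ranged from 3.66 to 5.99 CPM in Mcl1Δhep livers, above the 1.90 to 2.53 CPM of Mcl1Δhep Sting1-/- livers. Both groups labelled as deleted thus kept counts on Sting1, in ranges that overlapped that of WT livers. The counts of the whole gene alone therefore give no check of the deletion. The 6 hepatocyte markers, among them Alb, were present in every library, with a summed level of 80411 to 138150 CPM. For this and the other marker sums, CPM was taken relative to the library total without TMM scaling. Mcl1Δhep replicate 3 stood apart with 1256 CPM of 6 skeletal muscle markers, against at most 6.07 CPM elsewhere, and with 5268 CPM of 4 pancreas markers, against at most 29.0 CPM elsewhere. Some markers of other liver and blood cells were called higher in Mcl1Δhep than in WT livers (edgeR). These were 2 of 2 tested for neutrophils, 3 of 5 for macrophages, and 2 of 4 for stellate cells. None was called of 4 tested for cholangiocytes and of 3 each for endothelial cells, lymphocytes, and erythroid cells. Of the 6 hepatocyte markers, 1 was called lower. Over all tested genes, 10.8% were called higher and 9.43% lower. The summed neutrophil level was 6.30, 19.5, and 7.13 CPM in Mcl1Δhep replicates 1, 2, and 3 and 1.53 to 2.25 CPM in WT livers. That of macrophages was 616 to 734 against 336 to 530 CPM, and that of stellate cells was 501 to 630 against 310 to 459 CPM. The part of these cells in the results below was not tested. WT replicates 2 and 3 (5294 and 4589 counts) and Mcl1Δhep Sting1-/- replicate 1 (4233) expressed Y-linked genes. WT replicate 1 had 0 such counts, and Mcl1Δhep replicates 1, 2, and 3 had 0, 0, and 6. Sex was thus not balanced between Mcl1Δhep and WT livers, and was examined only with Y-linked expression as a covariate. Nothing in the labels says whether the libraries of a genotype came from separate litters or days.

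Of the 13 mRNAs, 7 had at least 10 counts in every library, and 6 had nearly none. mt-Co1, the catalytic core subunit of complex IV, led with 105508 to 529156 counts per library. mt-Nd1, mt-Nd2, mt-Nd4, and mt-Nd5 of complex I and mt-Cytb of complex III had between 3825 and 87273 counts. mt-Nd6, the one mRNA encoded on the other strand, had 60 to 344 counts. In contrast, mt-Co2 and mt-Atp8 had 0 counts in each of the 12 libraries, and mt-Atp6 had 2 counts in Sting1-/- replicate 3 and 0 elsewhere. mt-Co3 had 0 to 10 counts per library, mt-Nd4l 0 to 3, and mt-Nd3 0 to 16. The 6 genes lie side by side in the genome, from chrM:7013 to chrM:10173, and belong to complexes I and IV and the ATP synthase. Genes needed by every respiring cell were thus listed at 0, and for these 6 no level or fold change is given.

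The reference genome holds a near-identical nuclear copy of the stretch in which these 6 genes lie. In an alignment of the mitochondrial chromosome (16299 bases) to the nuclear chromosomes of GRCm39, chr1:24650616-24655269 on the minus strand matched positions 6390 to 11042 with 99.936% identity. The 2 substitutions were A6393T and T9461C (the mitochondrial base, its position on chrM, and the nuclear base), and the nuclear copy also had 1 inserted base. Another copy on chr2:22477300-22480546 matched positions 4441 to 7699 with 97.362% identity, and one on chr4:79920567-79923437 matched positions 12488 to 15356 with 93.034% identity. mt-Atp8, which encodes a small subunit of the ATP synthase, is printed as the case of a gene with no counts, with the 43 bases that it shares with mt-Atp6 in capitals. Its sequence in GRCm39 (chrM:7766-7969, plus strand) is identical to chr1:24653690-24653893 on the minus strand.
mt-Atp8: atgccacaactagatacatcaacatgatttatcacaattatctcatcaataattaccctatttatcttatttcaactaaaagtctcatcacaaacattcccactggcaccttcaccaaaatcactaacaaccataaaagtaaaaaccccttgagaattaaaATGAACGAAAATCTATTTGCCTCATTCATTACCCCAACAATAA

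The next pair shows the single substitution within the 6 genes, which falls on base 3 of mt-Nd3, a small complex I subunit. The window spans chrM:9431-9490, its nuclear copy is chr1:24652169-24652228 (minus strand), and the base that differs is in capitals.
mitochondrial: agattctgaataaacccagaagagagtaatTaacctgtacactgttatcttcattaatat
chromosome 1 copy: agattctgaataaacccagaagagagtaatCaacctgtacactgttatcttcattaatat
The start of mt-Co1 (chrM:5328-5417) is printed beside its chromosome 2 copy (chr2:22479570-22479659, minus strand) as the case of a gene with many counts, with the 3 bases that differ in capitals.
mitochondrial: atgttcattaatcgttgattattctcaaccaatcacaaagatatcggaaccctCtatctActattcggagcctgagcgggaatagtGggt
chromosome 2 copy: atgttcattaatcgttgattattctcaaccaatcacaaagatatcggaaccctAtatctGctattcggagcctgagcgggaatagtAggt

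To set the counts beside the copies, each mRNA was read in windows of 100 bases, and the windows with an exact match elsewhere in the nuclear genome were counted. All windows of mt-Co2, mt-Atp8, mt-Atp6, mt-Co3, and mt-Nd4l had one (100%), and 98.8% of those of mt-Nd3 did. The share was 60.8% for mt-Nd4, 30.8% for mt-Co1, and 3.2% for mt-Nd2. It was 0% for mt-Nd1, mt-Nd5, mt-Nd6, and mt-Cytb. With windows of 50 bases it was 51.1% for mt-Co1 and 7.6% for mt-Nd5, and with windows of 150 bases it stayed at or above 98.5% for the 6 genes with few counts. The genes with the largest shares were thus those with the fewest counts. How reads with several matches were treated is not given in the sources used here, and the part of the nuclear copies in these counts was not tested.

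**Figure D1:**
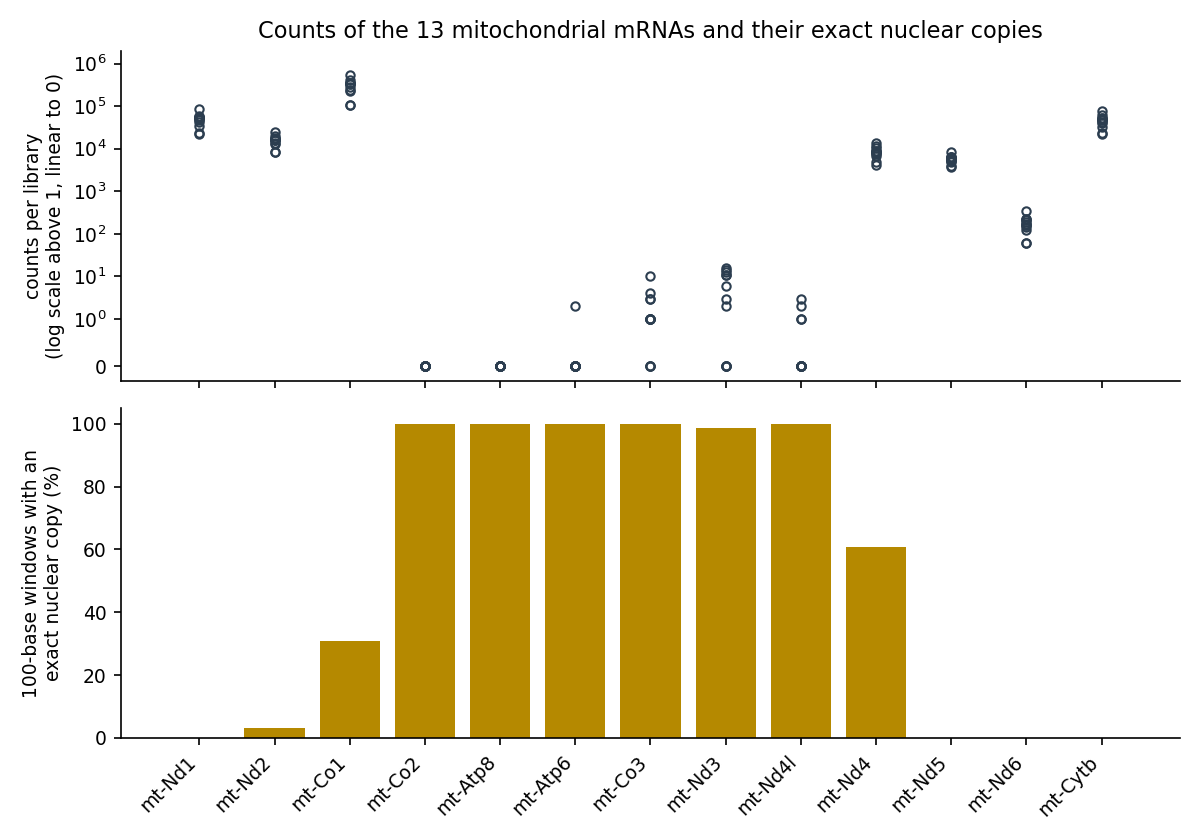
Counts of the 13 mitochondrial mRNAs in genome order (top, 1 circle per library, log scale above 1 and linear to 0) and the percent of their 100-base windows with an exact copy in the nuclear genome (bottom). The 6 genes with at most 16 counts in any library have 98.8 to 100% of windows copied, and the other 7 have 0 to 60.8%.

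The 7 measurable mRNAs differed widely in level, and their order was the same in each of the 12 libraries. Per kilobase of gene length, in WT livers, mt-Co1 had 6215 ± 1140 CPM (mean ± SD, n = 3) and mt-Nd1 had 1627 ± 71.8. mt-Cytb followed with 1350 ± 120, mt-Nd2 with 518 ± 107, and mt-Nd4 with 196 ± 26.7 CPM per kilobase. mt-Nd5 had 98.7 ± 12.4 and mt-Nd6 had 10.3 ± 3.10 CPM per kilobase. No neighbours in this order overlapped between WT libraries, in which mt-Nd1 (1578 to 1709) and mt-Cytb (1213 to 1437) were closest. Levels of mt-Co1 and mt-Nd4 per kilobase count only the reads that were assigned to them. Per kilobase of windows without an exact nuclear copy, a measure added after the data were seen, mt-Nd4 had 538 ± 73.4 CPM in WT livers and stood beside mt-Nd2 with 591 ± 122, and in Sting1-/- livers the means of the pair changed places.

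The mRNAs made up between 0.565 and 1.63% of all counts on genes, and this share separated the Mcl1Δhep libraries from each other. It was 1.42, 1.37, and 1.12% in WT replicates 1, 2, and 3, and 1.15, 1.20, and 1.29% in the Mcl1Δhep Sting1-/- replicates. In Sting1-/- livers it was 1.05, 1.21, and 1.10%. In Mcl1Δhep livers it was 1.63, 0.580, and 0.565%, so replicate 1 had the highest share of all libraries and replicates 2 and 3 the lowest. The group mean of 0.926 ± 0.613% (SD, n = 3) thus stands for no single Mcl1Δhep liver. Small structured RNAs (small nuclear, small nucleolar, and related RNAs) went the other way in the same libraries. Their share was 0.314, 2.77, and 1.55% in Mcl1Δhep replicates 1, 2, and 3 and 0.192 to 0.980% in the other 9 libraries. The part of library composition in the mitochondrial share was not tested. In bulk liver, fewer cells of a type and less RNA per cell cannot be told apart.

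**Figure D2:**
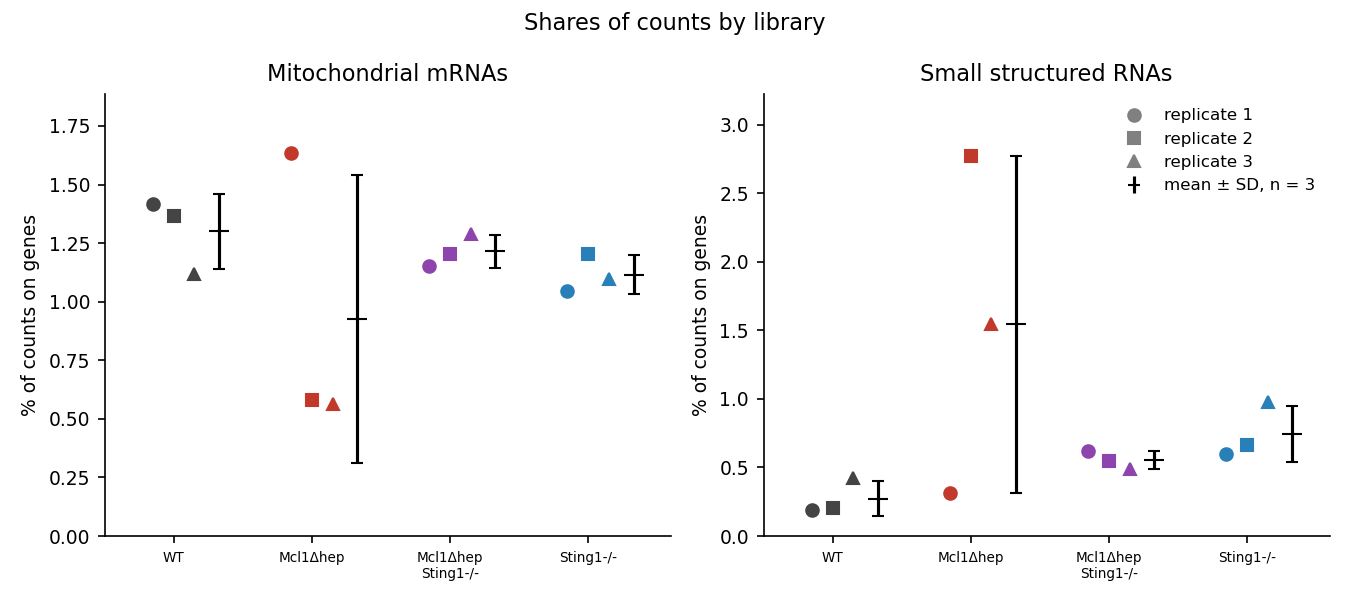
Share of counts on mitochondrial mRNAs (left) and on small structured RNAs (right), in percent of counts on genes, by genotype, with 1 symbol per library and the mean ± SD (n = 3). Mcl1Δhep replicates 2 and 3 have the lowest mitochondrial shares, 0.580 and 0.565%, and the highest small RNA shares, 2.77 and 1.55%.

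Deletion of Mcl1 in hepatocytes on the Sting1 wild-type background was not accompanied by a change of any mitochondrial mRNA past the threshold. mt-Co1 had 10649, 10588, and 7567 CPM in WT replicates 1, 2, and 3 and 10928, 3223, and 3368 CPM in Mcl1Δhep replicates 1, 2, and 3. Replicate 1 lay above all WT livers, the other 2 lay below all of them, and the groups overlapped. The log2 fold change of mt-Co1 was −0.72 (SE 0.39, edgeR adjusted p = 0.200, over all genes tested). mt-Nd1, a core membrane subunit of complex I, had 1510, 1636, and 1525 CPM in WT and 1802, 690, and 750 CPM in Mcl1Δhep livers. mt-Cytb, the cytochrome of complex III, had 1601, 1388, and 1644 CPM in WT and 1576, 724, and 689 CPM in Mcl1Δhep livers. Both were high in replicate 1 and low in the other 2, as mt-Co1 was. mt-Nd2 had 444, 508, and 660 CPM in WT and 511, 252, and 268 CPM in Mcl1Δhep livers. mt-Nd4 had 313, 246, and 252 CPM in WT and 276, 150, and 133 CPM in Mcl1Δhep livers. mt-Nd5, for which the split was smallest, had 168, 166, and 206 CPM in WT and 172, 117, and 122 CPM in Mcl1Δhep livers. mt-Nd6 had 3.90, 5.09, and 7.09 CPM in WT and 7.10, 1.89, and 1.89 CPM in Mcl1Δhep livers. Each of the 7 mRNAs was therefore close to or above the WT mean in 1 Mcl1Δhep liver, and below the lowest WT liver in the other 2.

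**Figure D3:**
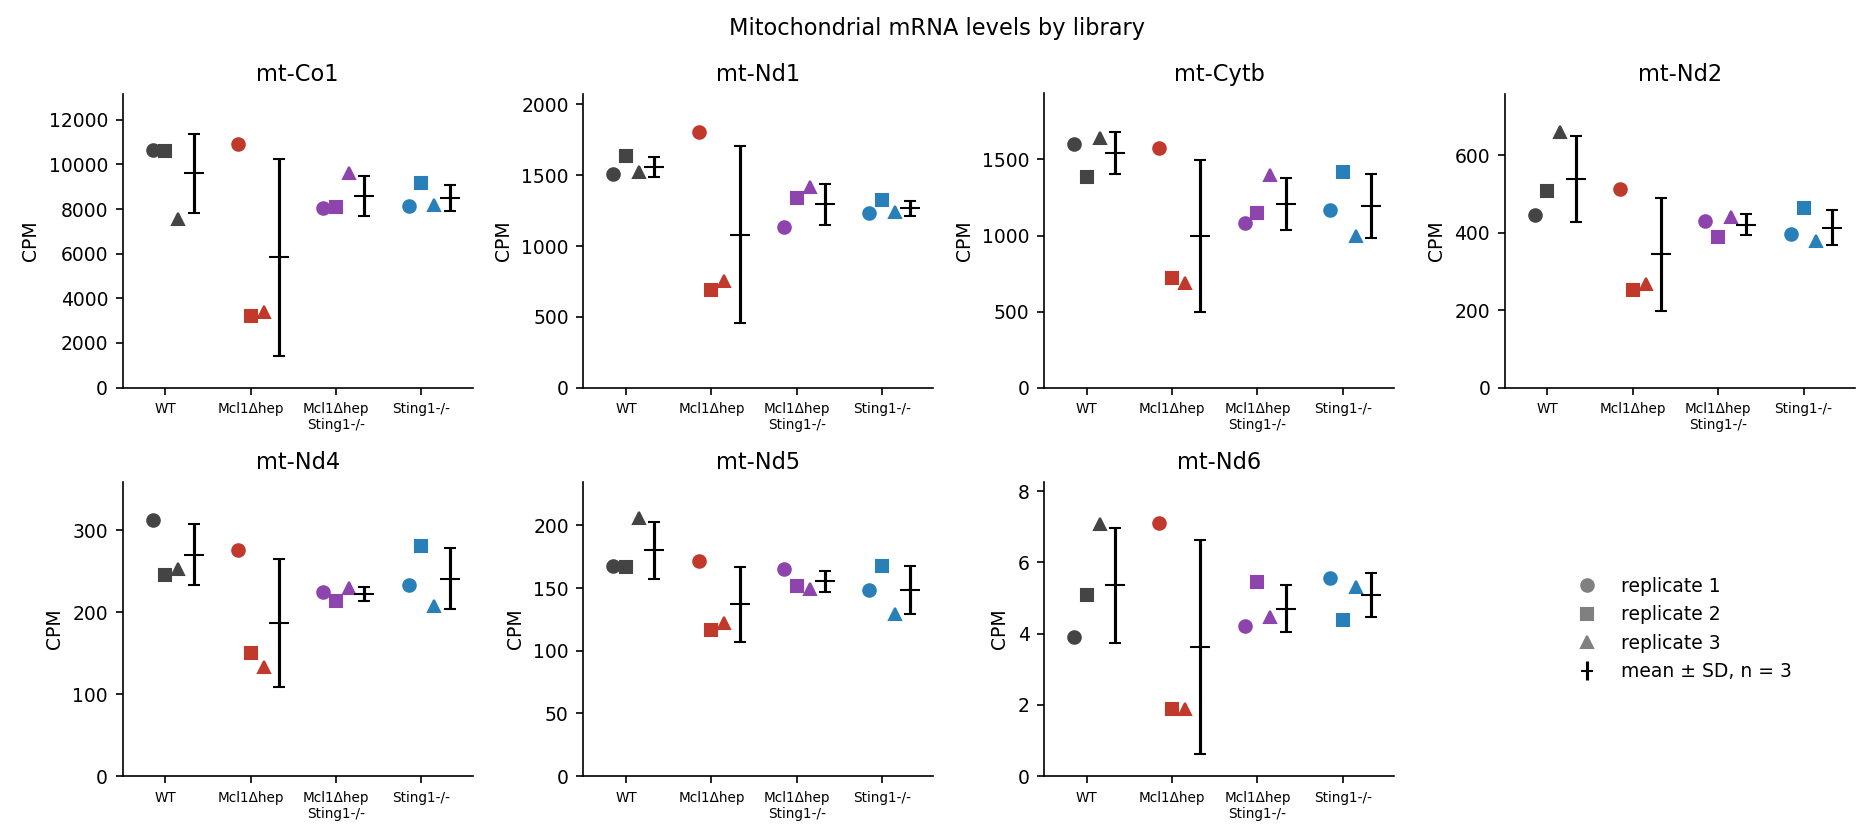
Level of the 7 measurable mitochondrial mRNAs in CPM, by genotype, with 1 symbol per library and the mean ± SD (n = 3). In each panel Mcl1Δhep replicates 2 and 3 are the lowest of the 12 libraries, while Mcl1Δhep replicate 1 lies among or above the WT livers.

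The 7 fold changes between Mcl1Δhep and WT livers were all negative, from −0.40 for mt-Nd5 to −0.72 for mt-Co1, with adjusted p-values from 0.0902 to 0.390 (edgeR). At the threshold of 0.05, 0 of the 8 members that passed the filter on low counts were called, while 20.2% of the 15070 genes tested were. At an unadjusted p under 0.05 there were 4 of the members and 5558 of all tested genes. DESeq2 called 0 members and 3858 genes in all. The eighth, mt-Nd3, passed the filter with 0 to 16 counts per library, and its counts are given above in place of a fold change. The median log2 fold change of the 8 tested members was −0.54, beside 0.00 over all tested genes. Leaving out each library in turn called 0 members in 11 of the 12 fits and 7 in the fit without Mcl1Δhep replicate 1. In that fit mt-Co1 had a log2 fold change of −1.55 (SE 0.20, adjusted p = 0.000794) and mt-Nd6 one of −1.47, and mt-Nd5 had −0.59. All 7 measurable mRNAs were lower than in WT livers there, in which 17.8% of the 15357 genes tested were called lower. With the small structured RNA share as a covariate, the median of the 8 was 0.064 and 0 were called, so the direction of the median changed with this covariate.

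**Figure D4:**
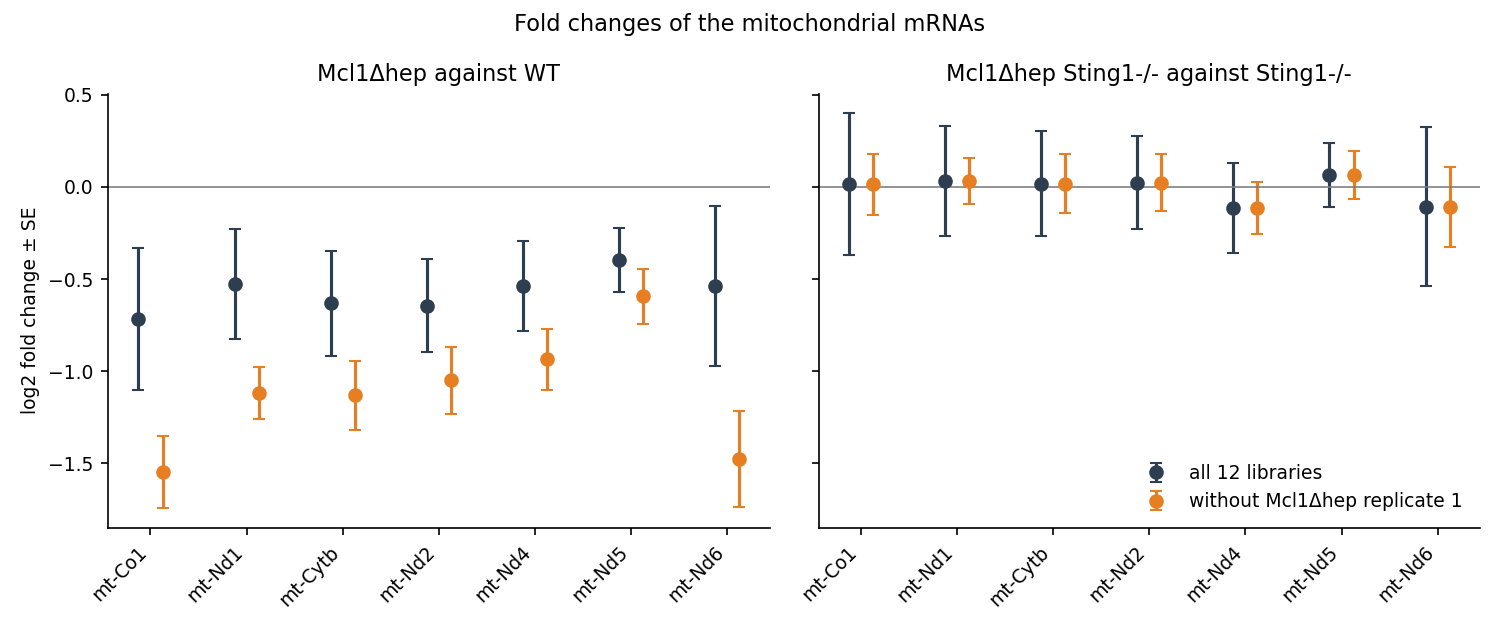
Log2 fold changes ± SE of the 7 measurable mitochondrial mRNAs for the deletion of Mcl1 with Sting1 present (left) and absent (right), with all 12 libraries and without Mcl1Δhep replicate 1. On the left the values run from −0.40 to −0.72 with all libraries and from −0.59 to −1.55 without that library, and on the right they stay between −0.11 and 0.06.

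On the Sting1-/- background, the mitochondrial mRNAs hardly differed in mean between livers with and without hepatocyte Mcl1. mt-Co1 had 8042, 8085, and 9624 CPM in Mcl1Δhep Sting1-/- livers and 8132, 9177, and 8172 CPM in Sting1-/- livers. mt-Nd1 had 1135, 1338, and 1416 CPM against 1232, 1328, and 1242 CPM, and mt-Cytb had 1080, 1145, and 1401 CPM against 1167, 1418, and 997 CPM. The groups overlapped for all 3. Log2 fold changes of the 7 mRNAs ran from −0.11 to 0.06 (edgeR SE 0.17 to 0.43, adjusted p from 0.920 to 0.996). EdgeR called none of the 8 tested members, beside 0.803% of all tested genes. At an unadjusted p under 0.05 there were 0 members and 1709 genes in all, and DESeq2 called 0 members and 461 genes. For mt-Co1, whose SE was 0.38, a change of the size fitted with Sting1 present (−0.72) was not detectable in this fit. Its SE rests on a spread pooled over all 12 libraries. The SD of mt-Co1 was 4408 CPM in Mcl1Δhep livers, but 901 CPM in Mcl1Δhep Sting1-/- and 592 CPM in Sting1-/- livers. Without Mcl1Δhep replicate 1, the SEs of the 7 mRNAs in this comparison were 0.12 to 0.22, and 0 members were called.

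The effect of Mcl1 deletion was then compared between the Sting1 backgrounds by the interaction term of the same model. The difference of the log2 fold changes ran from 0.42 for mt-Nd4 to 0.73 for mt-Co1, and 0 members were called (edgeR adjusted p from 0.401 to 0.767), as were 0% of all tested genes. At an unadjusted p under 0.05 there were 0 of the members and 2164 of all genes, and DESeq2 called 0 members and 170 genes in all. Without Mcl1Δhep replicate 1, 6 members were called higher in this term, beside 6.03% of the genes tested. A difference in the mitochondrial mRNAs between the Sting1 backgrounds thus rested on which Mcl1Δhep livers were in the fit. For the mean of the effect over both backgrounds, the 7 fold changes ran from −0.35 to −0.17, and edgeR and DESeq2 called 0 members, with 0 also at an unadjusted p under 0.05, beside 16.7% of all tested genes in edgeR. Without Mcl1Δhep replicate 1, 6 were called lower, beside 14.4%.

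The loss of Sting1 was compared in livers with and without hepatocyte Mcl1. In Mcl1Δhep livers, the 7 mRNAs had fold changes from 0.18 for mt-Nd5 to 0.56 for mt-Co1 in Mcl1Δhep Sting1-/- against Mcl1Δhep livers, with adjusted p-values from 0.427 to 0.666 (edgeR). None was called, nor was any other tested gene (0%), and at an unadjusted p under 0.05 there were 0 members and 3098 genes in all. DESeq2 called 0 members and 681 genes. Without Mcl1Δhep replicate 1, 7 members were called higher, beside 11.2% of the genes tested, and 1 of the 7 was mt-Nd3 with its few counts. In livers with Mcl1, the 7 mRNAs had fold changes from −0.38 for mt-Nd2 to −0.08 for mt-Nd6 in Sting1-/- against WT livers (edgeR adjusted p = 0.998 for each), and again 0% of tested genes were called, with 821 at an unadjusted p under 0.05 and 51 called by DESeq2. mt-Nd3, at 0, 0, and 3 counts in WT and 11, 11, and 14 in Sting1-/- livers, was the 1 member with an unadjusted p under 0.05. The comparisons that contain the Mcl1Δhep livers share them, and are not independent of each other.

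The makeup of the mitochondrial counts also differed between the same libraries. mt-Co1 took 71.4 to 73.4% of the mitochondrial counts in the 6 Sting1-/- and Mcl1Δhep Sting1-/- libraries. It took 72.5, 72.8, and 63.8% in WT replicates 1, 2, and 3 and 71.6, 62.5, and 63.2% in the Mcl1Δhep replicates. WT replicate 3, which had the lowest mitochondrial share among WT livers and the highest small structured RNA share among them (0.420%), thus resembled Mcl1Δhep replicates 2 and 3 in makeup. The count of mt-Co1 over that of mt-Nd5 was 27.5 to 63.7 in Mcl1Δhep livers and 36.7 to 63.6 in WT livers. It was 48.7 to 64.3 in Mcl1Δhep Sting1-/- livers and 54.7 to 63.1 in Sting1-/- livers.

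mt-Nd6 is read from the strand opposite to that of the other 12 mRNAs and needs its own promoter. It overlaps mt-Nd5 by 14 bases, shown in capitals within chrM:13532-13585 of GRCm39, and whether strand was used in counting is not given in the sources used here.
mt-Nd5 and mt-Nd6 overlap: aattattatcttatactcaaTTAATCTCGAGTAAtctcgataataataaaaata
For every 1000 counts on the 6 measurable plus-strand mRNAs, mt-Nd6 had 0.405 ± 0.173 counts in WT livers and 0.396 ± 0.0604 in Mcl1Δhep livers (mean ± SD, n = 3). It had 0.399 ± 0.0747 in Mcl1Δhep Sting1-/- livers and 0.436 ± 0.0828 in Sting1-/- livers, and the 4 groups overlapped. The spread was widest in WT livers, from 0.265 to 0.598.

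The mitochondrial mRNAs were next set beside the nuclear genes of the same complexes, in TPM computed from the counts and gene lengths. In WT livers, the 5 measurable complex I mRNAs of the mitochondrial genome had 2.15, 2.21, and 2.24 times the summed TPM of 36 nuclear complex I genes. The ratio was 2.89, 0.809, and 0.871 in the Mcl1Δhep replicates, 1.90 to 2.07 in Mcl1Δhep Sting1-/- livers, and 1.47 to 1.92 in Sting1-/- livers. The nuclear sum was 4331 and 4434 TPM in Mcl1Δhep replicates 2 and 3, above the 3934 to 4130 TPM of the WT livers. The mitochondrial sum in these 2 libraries was 3503 and 3861 TPM, below the 8694 to 8867 TPM of the WT livers. TPM is relative to a total that includes the short structured RNAs, which were highest in these 2 libraries. The sums depend on that total, whereas the ratios do not. For complex III, the ratio of mt-Cytb to 9 nuclear genes was 2.14 to 2.51 in WT livers and 2.95, 0.846, and 0.827 in the Mcl1Δhep replicates. For complex IV, the ratio of mt-Co1 to 12 nuclear genes was 5.71 to 9.07 in WT livers and 9.75, 1.96, and 2.05 in the Mcl1Δhep replicates. In the libraries with few mitochondrial mRNAs, the nuclear genes of the same complexes were therefore not low. Since the handling of reads from the copied stretches is not known, the ratios compare libraries and not subunits.

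**Figure D5:**
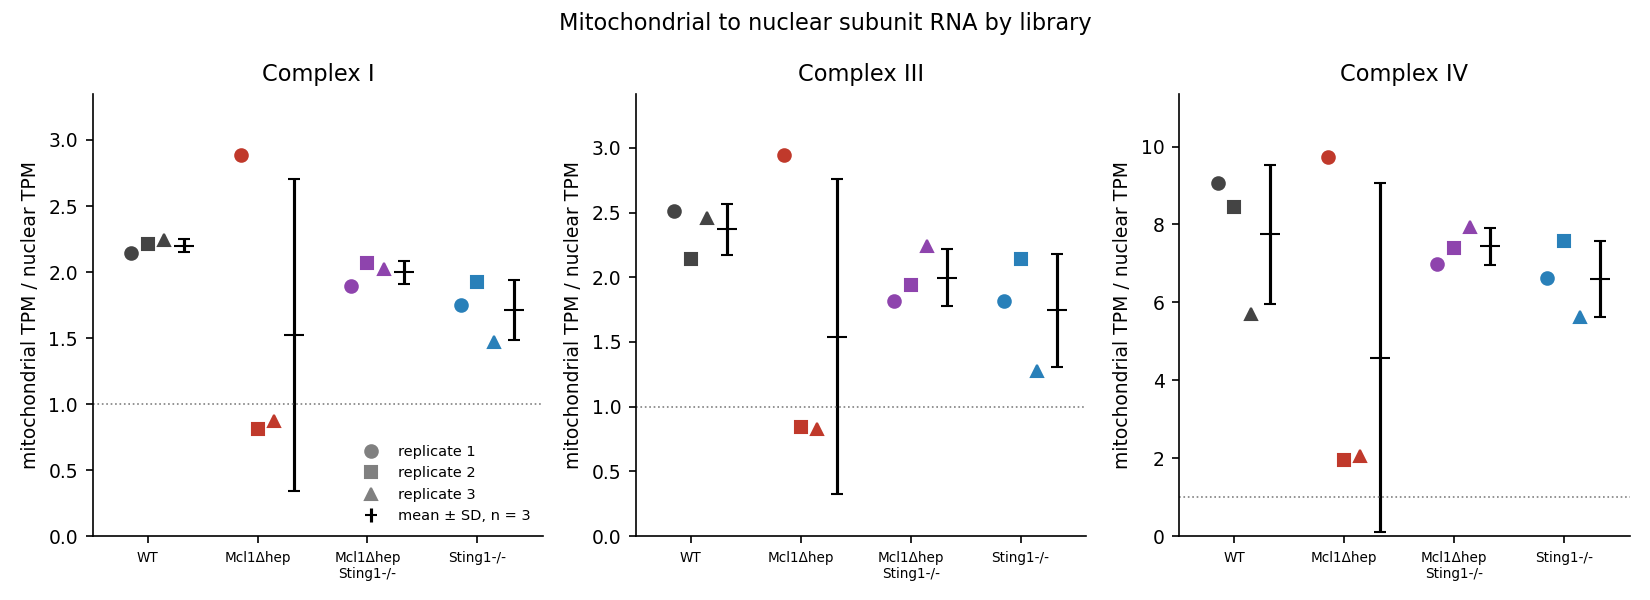
Ratio of the summed TPM of the measurable mitochondrial mRNAs to that of the nuclear genes of complexes I, III, and IV, by genotype, with 1 symbol per library and the mean ± SD (n = 3). The dotted line marks a ratio of 1, below which lie Mcl1Δhep replicates 2 and 3 for complexes I (0.809 and 0.871) and III (0.846 and 0.827).

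None of the 36 nuclear genes of complex I and none of the 9 of complex III was called between Mcl1Δhep and WT livers, with medians of 0.14 in both on the log2 scale. At an unadjusted p under 0.05 there were 8 and 2 of them, beside 5558 of all 15070 tested genes. DESeq2 called 3 and 1, beside 3858 genes in all. At an adjusted p under 0.05, edgeR called 10.8% of all tested genes higher and 9.43% lower. These were 1629 and 1421 genes, and became 2531 and 664 when library totals were the scale. Of the 12 nuclear complex IV genes (median 0.25), Cox7a1, a subunit of heart and skeletal muscle, was called higher. It had 2.04, 4.83, and 16.3 CPM in the Mcl1Δhep replicates, of which replicate 3 had the muscle markers. Its log2 fold change of 2.73 became 1.57, still called, without that library, and it was not called without WT replicate 2 (2.59) or WT replicate 3 (2.58). Of the 16 complex V genes (median 0.21), Atp5if1, the inhibitor of the ATP synthase, was called higher (log2 fold change 0.72, SE 0.18, edgeR adjusted p = 0.0171), but not without WT replicate 2, WT replicate 3, or Mcl1Δhep replicate 2 (0.57 at the lowest). Complex II is made of nuclear subunits alone, and of its 4 genes Sdha, the flavoprotein subunit, fell by 0.75 on the log2 scale (edgeR adjusted p = 0.0127) and was called in each of the 12 fits that left out 1 library. With the small structured RNA share as a covariate it was at −0.42 (adjusted p = 0.214), and none of the 18 called nuclear genes that the rule for names picked was past the threshold in that fit. With Y-linked expression as a covariate, 7 of the 18 were past it, Sdha among them (edgeR adjusted p = 0.0434), and 11 were not. Of 78 genes of mitochondrial ribosomal proteins (median 0.17), 3 were called higher (Mrpl54, Mrpl46, and Mrps25) and Mrps5 was called lower. Their calls held in 8, 2, 4, and 1 of the 12 fits that left out 1 library, and DESeq2 also called 4 of the 78.

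The nuclear genes that make and maintain mitochondrial RNA were given by lists of their roles. Among 11 genes of mitochondrial transcription, 0 were called between Mcl1Δhep and WT livers by edgeR and by DESeq2. Of all tested genes, edgeR called 20.2% and DESeq2 called 3858 genes. An unadjusted p under 0.05 was found for 2 of the 11, beside 5558 of all 15070 tested genes. Polrmt, the RNA polymerase of mitochondria, had 21.8 ± 1.49 CPM in WT and 16.8 ± 3.04 CPM in Mcl1Δhep livers (log2 fold change −0.38, adjusted p = 0.0978). Tfam, which packages and bends mitochondrial DNA, had 41.0 ± 3.27 and 40.0 ± 1.87 CPM (−0.04, adjusted p = 0.833). Tfb2m, the factor that opens the promoter, had 9.51 ± 0.984 and 7.17 ± 0.063 CPM (−0.40, adjusted p = 0.0546). Of 25 genes of RNA processing, Elac2, which cuts at the 3′ ends of tRNAs, was called lower (−0.53, adjusted p = 0.0273). Of 20 genes that replicate and maintain mitochondrial DNA, Top1mt, a topoisomerase, was called lower (−0.58, adjusted p = 0.0319). These were the only edgeR calls in the 2 lists, beside 9.43% of all tested genes called lower and 10.8% called higher. Both calls held in 8 of the 12 fits that left out 1 library. With Y-linked expression as a covariate, neither Elac2 nor Top1mt was past the threshold (edgeR adjusted p = 0.157 and 0.0733). Elac2 was not called without WT replicate 2, WT replicate 3, Mcl1Δhep replicate 2, or Mcl1Δhep replicate 3 (−0.43 at the weakest), nor Top1mt without any 1 of the WT livers or Mcl1Δhep replicate 2 (−0.39 at the weakest).

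The list of genes of mitochondrial RNA stability and decay held 4 calls among 18 tested. All 4 were lower in Mcl1Δhep livers, beside 9.43% of all tested genes called lower. Lrpprc, whose product holds mitochondrial mRNAs stable, had 176, 209, and 184 CPM in WT and 136, 100, and 101 CPM in Mcl1Δhep livers. The groups did not overlap, and the log2 fold change was −0.76 (SE 0.16, edgeR adjusted p = 0.00843). Its lowest values were in the 2 libraries with few mitochondrial mRNAs, whereas replicate 1 was below all WT livers for Lrpprc but not for the mitochondrial mRNAs. Fastkd1, of a family of mitochondrial RNA-binding proteins, had 27.0, 28.9, and 22.2 CPM in WT and 14.7, 15.4, and 14.2 CPM in Mcl1Δhep livers (−0.82, adjusted p = 0.00342). Grsf1, an RNA-binding protein of mitochondrial RNA granules, had 104 ± 11.4 and 69.6 ± 4.21 CPM (−0.58, adjusted p = 0.00878). Unlike the mitochondrial mRNAs, Fastkd1 and Grsf1 differed little among the 3 Mcl1Δhep livers. Angel2, chosen after its value was seen to complete the count, was at −0.38 (adjusted p = 0.0494) and was called in 1 of the 12 fits that left out 1 library. Lrpprc, Fastkd1, and Grsf1 were called in each of the 12 fits that left out 1 library. With the small structured RNA share as a covariate, none of the 3 was past the threshold (edgeR adjusted p = 0.162, 0.0826, and 0.0905). With Y-linked expression as a covariate, Lrpprc (0.0340) and Fastkd1 (0.00936) were past it by adjusted p and Grsf1 (0.0715) was not.

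Among 10 tested regulators of mitochondrial biogenesis, 4 were called lower in Mcl1Δhep livers. Ppargc1b, a coactivator of respiratory genes, fell by 0.89, Ppara, the nuclear receptor of fatty acid oxidation, fell by 0.83, and Gabpa, also known as nuclear respiratory factor 2 subunit alpha, fell by 0.65 on the log2 scale. The fourth, outside the rule for names, was Yy1. Ppargc1b was called in 10, Ppara in 9, Gabpa in 8, and Yy1 in 6 of the 12 fits that left out 1 library. Without WT replicate 3 or Mcl1Δhep replicate 2 none of the first 3 was called, without WT replicate 2 Ppara and Gabpa were not, and without Mcl1Δhep replicate 3 Gabpa was not. Ppargc1a, a coactivator of the same family as Ppargc1b, had 6.15 ± 0.721 CPM in WT and 6.98 ± 3.02 in Mcl1Δhep livers (0.18, edgeR adjusted p = 0.690). Of 22 mitochondrial aminoacyl-tRNA synthetases, which load the tRNAs for translation in mitochondria, 3 were called lower. Nars2 fell by 0.84, Aars2 fell by 0.79, and Vars2 fell by 0.71, and they were called in 5, 12, and 10 of these fits (Vars2 not without WT replicate 2 or 3). In all, 13 of the 106 tested genes of these 6 lists were called lower and 0 higher, beside 9.43% of all tested genes called lower. With library totals as the scale 6 were called lower and 3 higher, with only the libraries of the compared groups 3 were lower and 1 higher, with the small structured RNA share as a covariate 0 were called, and with Y-linked expression as a covariate 4 were lower. Without Mcl1Δhep replicate 1, 21 were lower and 8 higher, beside 17.8% and 16.3% of all genes tested in that fit. In Mcl1Δhep Sting1-/- against Sting1-/- livers, 0 of the 106 were called by edgeR or DESeq2, beside 0.803% of all tested genes in edgeR and 461 genes in DESeq2. An unadjusted p under 0.05 was found for 6 of the 106, beside 1709 of all 15070 tested genes. There, Lrpprc was at 0.03 (adjusted p = 0.973) and Fastkd1 at −0.41 (adjusted p = 0.242). In the interaction term, edgeR called 0 of the 106 and also 0% of all tested genes. DESeq2 called 1 of the 106 and 170 genes in all. At an unadjusted p under 0.05 there were 14 of the 106, beside 2164 of all tested genes. A difference of these genes between the Sting1 backgrounds was thus not shown.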

How the data were processed

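Livers of 4 genotypes were measured by total RNA-seq on an Illumina NovaSeq, 1 library per liver. The files deposited by the authors hold raw read counts for each Ensembl gene, with no scaling. The submitters' processing notes name STAR, featureCounts, and GRCm39. Their versions, the annotation, the use of strand, and the handling of reads with several matches are not given in the sources used here, and the labels and the study's methods name different RNA extraction kits. Genotypes were taken from the labels. The members and gene lists were chosen with earlier results of these data known.

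Log2 fold changes, SEs (from the F statistic), and two-sided p-values were computed with edgeR 4.0.16 (TMM, filterByExpr by genotype, glmQLFit and glmQLFTest, prior count of 2) in R 4.3.3 on all 12 libraries without covariates, with Benjamini-Hochberg adjustment over 15070 genes and a threshold of 0.05. DESeq2 1.42.0 was an alternative. TPM used exon lengths of GENCODE vM39, which holds 39533 of the 40551 identifiers. Nuclear copies were found with blastn 2.17.0 (word size of 16) and as exact windows of 50, 100, and 150 bases. Shares, ratios, orders, and medians are descriptions with no test. Both tools were tested on simulated Mcl1Δhep and WT counts in which set genes moved by 2 on the log2 scale. Of 197 such genes among 14988, edgeR found 190 and called 11 others, and of 200 among 17112, DESeq2 found 187 and called 36 others. The simulation gave every gene the same dispersion and had no library that stood apart. These counts therefore do not tell how well the smaller changes of the mitochondrial mRNAs would be found.

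All mitochondrial genes were named, and from each list up to 3 called genes per direction, by size of the change, with Polrmt, Tfam, Tfb2m, Lrpprc, and Ppargc1a. Within a genotype, the chi-square statistic between libraries was 30.6 to 219 times its degrees of freedom, so none was a duplicate. The p-values measure the spread between these libraries. The alternatives were other scalings, filters, tests, covariates, a replicate block, denominators, and leaving out each library. Tables and plots were made in Python 3.11.15 with pandas 2.3.3, numpy 2.4.6, and matplotlib 3.10.9.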

Additional observations from a re-analysis of the deposited data

How the results depend on the processing

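With 3 livers per genotype, the results for the mitochondrial mRNAs turned on Mcl1Δhep replicate 1. Leaving out each library in turn gave 0 to 7 called members for Mcl1Δhep against WT (median −1.08 to −0.33), 0 to 7 for Mcl1Δhep Sting1-/- against Mcl1Δhep (median 0.090 to 0.82), 0 to 6 for the mean effect of Mcl1 (median −0.54 to −0.19), and 0 to 6 for its difference between Sting1 backgrounds (median 0.34 to 1.11). The counts above 0 came from the fit without Mcl1Δhep replicate 1, in which 5232 genes were called between Mcl1Δhep and WT livers in place of 3050. No other alternative called a member in any comparison.

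Scaling to the mitochondrial mRNA sum moved the median of the members to 0.16 for Mcl1Δhep against WT, to −0.28 for Mcl1Δhep Sting1-/- against Mcl1Δhep, and to −0.15 for the difference between backgrounds, and the median of all tested genes to 0.97 in the first. It turned mt-Nd1 (0.19), mt-Nd2 (0.13), mt-Nd4 (0.28), mt-Nd5 (0.50), and mt-Cytb (0.12) positive, as its construction sets their sum equal. With the small structured RNA share as a covariate, the medians were 0.064 for Mcl1Δhep against WT, 0.29 for Sting1-/- against WT, and −0.28 for the difference. mt-Nd1 (0.16), mt-Co1 (0.24), mt-Nd4 (0.025), and mt-Nd6 (0.10) turned positive, Tfam went to 0.059, Ppargc1a to −0.12, and Mrpl46 to −0.00080, and 417 genes were called. The cause was not tested. Library totals shifted the median of all tested genes by 0.19 and gave Tfam 0.15. Without single libraries, Tfam ranged from −0.094 to 0.020 and Ppargc1a from −0.21 to 0.41. Other counts of called genes between Mcl1Δhep and WT livers beyond 1.5 times the count given were 1176 with the libraries of the compared groups, 1501 with Y-linked expression as a covariate, 6736 (6671 of them higher) with scaling to the mitochondrial mRNA sum, and 1233 and 1238 without WT replicate 2 and Mcl1Δhep replicate 2, and 1596 without WT replicate 3. Libraries of the same number did not deviate together (18 pairs, r from −0.54 to 0.25, 3 of them over 0.1, 4 of 12 libraries best with their own number), and with a replicate block 2590 genes and 0 members were called, with a median of −0.63. Over all settings, called genes ranged from 1 to 461 for Mcl1Δhep Sting1-/- against Sting1-/- (121 in the fit given), 0 to 3108 against Mcl1Δhep, 0 to 51 for Sting1-/- against WT, 1583 to 4267 for the mean effect, and 0 to 1574 for the difference. When only the libraries of the compared groups were fitted, 3 of the 18 called nuclear genes picked by the rule for names (Fastkd1, Ppargc1b, and Aars2) were still called, and Lrpprc had an edgeR adjusted p of 0.0583. The mitochondrial share given above holds no rRNA genes, and a share with them could not be given, since they were not analysed here.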
